A study of Homo sapiens with 8 samples.

Results

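The WNT ligands, their Frizzled receptors and co-receptors and their secreted inhibitors were followed in chromatin accessibility data from MCF10A cells treated with TGFβ1. The members were the protein-coding GENCODE genes named WNT, FZD, SFRP or DKK with a number, together with LRP5, LRP6, ROR1, ROR2 and RYK. They came to 42 of the 19970 protein-coding genes, with 19 WNT ligands, 10 Frizzled receptors, 4 SFRP and 4 DKK inhibitors and 5 co-receptors. ATAC-seq, in which a transposase inserts adapters into open DNA, had been carried out on wild-type MCF10A, an established, immortalised and non-tumorigenic human mammary epithelial line. The control cells had received solvent, 0.1% BSA in PBS, and the labels place them at time 0, although the study's legends give them 72 h of solvent. The other cells had received 5 ng/ml of recombinant human TGFβ1 for 6, 24 or 72 h. All 4 conditions were grown with horse serum, EGF, hydrocortisone, cholera toxin and insulin. The labels give 2 replicates a condition, 8 libraries in all.

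The peak caller had pooled both replicates, so the files hold 1 peak list a condition. No spread between replicates could be computed, and no comparison here has a test or a p-value. All 3 comparisons share the solvent list. The 4 lists were merged into 126658 regions, and each region was given, per list, the summed AUC of its peaks, which is the area under the caller's significance curve. The AUC has no unit and grows with read depth, so each TGFβ1 list was divided by its median ratio to solvent over regions within 3 kb of a transcription start site (TSS). These factors were 1.36, 1.30 and 1.19 at 6, 24 and 72 h. A gene's accessibility was the scaled AUC summed over every region that overlapped its body or the 20 kb on either side. A gene was counted as higher or lower when this sum was at least 1.5 times, or at most 1/1.5 of, that in solvent. That limit is a size and not a test.

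WNT proteins are secreted lipid-modified ligands that bind Frizzled receptors on the cell surface. Together with the co-receptors LRP5 or LRP6 they stabilise β-catenin, which then acts with TCF and LEF factors in the nucleus, whereas together with ROR1, ROR2 or RYK they act through other routes on cell shape, polarity and movement. SFRP proteins bind WNTs outside the cell and most DKK proteins block LRP5 and LRP6, and in the mammary gland WNT signals act in branching and in the upkeep of basal and stem cells.

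The 42 genes held 318 of the merged regions, of which 113 lay within 3 kb of a TSS of any gene and 205 did not. The highest points of 167 regions lay in introns of the member, 21 in exons, 77 upstream and 53 downstream. Of these regions 206 (64.8%) had a peak in all 4 lists, against 62.6% of all merged regions. A further 40 (12.6%) had a peak in all TGFβ1 lists and none in solvent, against 14.3% of all. Overlapping windows placed 5 regions in both WNT1 and WNT10B and 3 in both WNT6 and WNT10A. A TSS of another protein-coding gene lay within the window of 19 members.

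Some of the regions described further on are shown first, as the 201 bases around the highest summit on the + strand of GRCh38. Capitals mark the AP-1 word TGACTCA or its other strand TGAGTCA, and for WNT3 the SMAD palindrome GTCTAGAC. The first 3 belong to ligand genes. Those of WNT2 and WNT5B were the strongest at 72 h among regions with no peak in solvent, and that of WNT3 had the largest ratio over a member's own start.
WNT2 intron, chr7:117283561-117283761: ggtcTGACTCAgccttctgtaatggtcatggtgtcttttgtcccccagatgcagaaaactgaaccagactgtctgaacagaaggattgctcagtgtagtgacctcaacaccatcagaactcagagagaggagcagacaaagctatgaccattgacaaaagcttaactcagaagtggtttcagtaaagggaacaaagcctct
WNT5B upstream, chr12:1527813-1528013: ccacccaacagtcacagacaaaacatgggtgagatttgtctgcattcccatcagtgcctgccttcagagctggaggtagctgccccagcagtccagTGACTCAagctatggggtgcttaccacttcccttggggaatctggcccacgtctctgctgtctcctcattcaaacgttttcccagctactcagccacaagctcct
WNT3 internal start, chr17:46772297-46772497: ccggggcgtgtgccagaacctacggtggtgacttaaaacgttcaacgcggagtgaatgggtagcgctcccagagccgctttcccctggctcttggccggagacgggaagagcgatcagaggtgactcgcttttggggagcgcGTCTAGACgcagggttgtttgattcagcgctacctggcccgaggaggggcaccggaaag
The next pair belong to receptor genes that gained accessibility away from the gene start.
FZD2 upstream, chr17:44547075-44547275: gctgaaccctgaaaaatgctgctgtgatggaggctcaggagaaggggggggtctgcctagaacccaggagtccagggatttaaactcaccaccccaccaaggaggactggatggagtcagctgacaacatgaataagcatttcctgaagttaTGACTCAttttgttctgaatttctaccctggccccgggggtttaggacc
ROR1 intron, chr1:63877904-63878104: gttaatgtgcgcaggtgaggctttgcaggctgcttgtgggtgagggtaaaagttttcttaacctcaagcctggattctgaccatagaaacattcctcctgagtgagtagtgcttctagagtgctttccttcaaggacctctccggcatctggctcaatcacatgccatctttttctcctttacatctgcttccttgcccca
The last pair lie around WNT3A and lost the largest share of their accessibility among regions with an AUC of at least 1000 in solvent and a peak in all lists.
WNT3A intron, chr1:228045128-228045328: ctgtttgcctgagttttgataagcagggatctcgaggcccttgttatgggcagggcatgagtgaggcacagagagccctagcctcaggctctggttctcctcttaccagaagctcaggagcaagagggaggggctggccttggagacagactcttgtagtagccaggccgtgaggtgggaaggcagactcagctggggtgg
WNT3A upstream, chr1:227996330-227996530: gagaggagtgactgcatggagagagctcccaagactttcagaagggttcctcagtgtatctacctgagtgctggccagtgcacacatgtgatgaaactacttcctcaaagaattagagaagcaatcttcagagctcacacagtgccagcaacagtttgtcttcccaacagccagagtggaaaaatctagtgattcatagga

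After 6 h of TGFβ1, 2 of the 40 members with a peak in solvent were higher (5.00%), against 4.44% of 17965 genes tested, and 0 were lower, against 0.0557%. The 2 were FZD2 and DKK2. After 24 h, 8 of 40 members were higher (20.0%, background 10.5%) and 0 lower (background 0.217%). After 72 h the count was again 8 of 40 (20.0%, background 11.6%), and 0 were lower (background 0.401%). When regions within 3 kb of another gene's TSS were left out of every sum, 8 members were again higher at 72 h but the background was 19.4%, so that the share of members lay near that of all genes. With all regions summed, the median log2 ratio over the 40 members was 0.05, 0.13 and 0.16 at 6, 24 and 72 h, beside 0.04, 0.08 and 0.08 over all genes. Without the regions near other genes' TSSs, the medians were 0.04, 0.15 and 0.16, below the 0.09, 0.17 and 0.18 over all genes. With all regions summed, 28 members (70.0%) were above 0 at 72 h, against 64.7% of all genes.

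The 8 genes higher at 72 h were WNT5A, WNT2, WNT3, WNT2B, FZD2, ROR1, ROR2 and DKK2. WNT5A and 3 receptors that can bind its product, FZD2, ROR1 and ROR2, stood among them, a grouping made after the values were seen. It leaves out WNT receptors that were not higher, such as RYK with a log2 ratio of 0.09 at 72 h. The median over the 10 Frizzled genes was -0.03 at that time. None of WNT5A, FZD2, ROR1 and ROR2 stayed past the limit when only regions with a peak in all 4 lists were summed, as described with the gained regions.

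**Figure D1:**
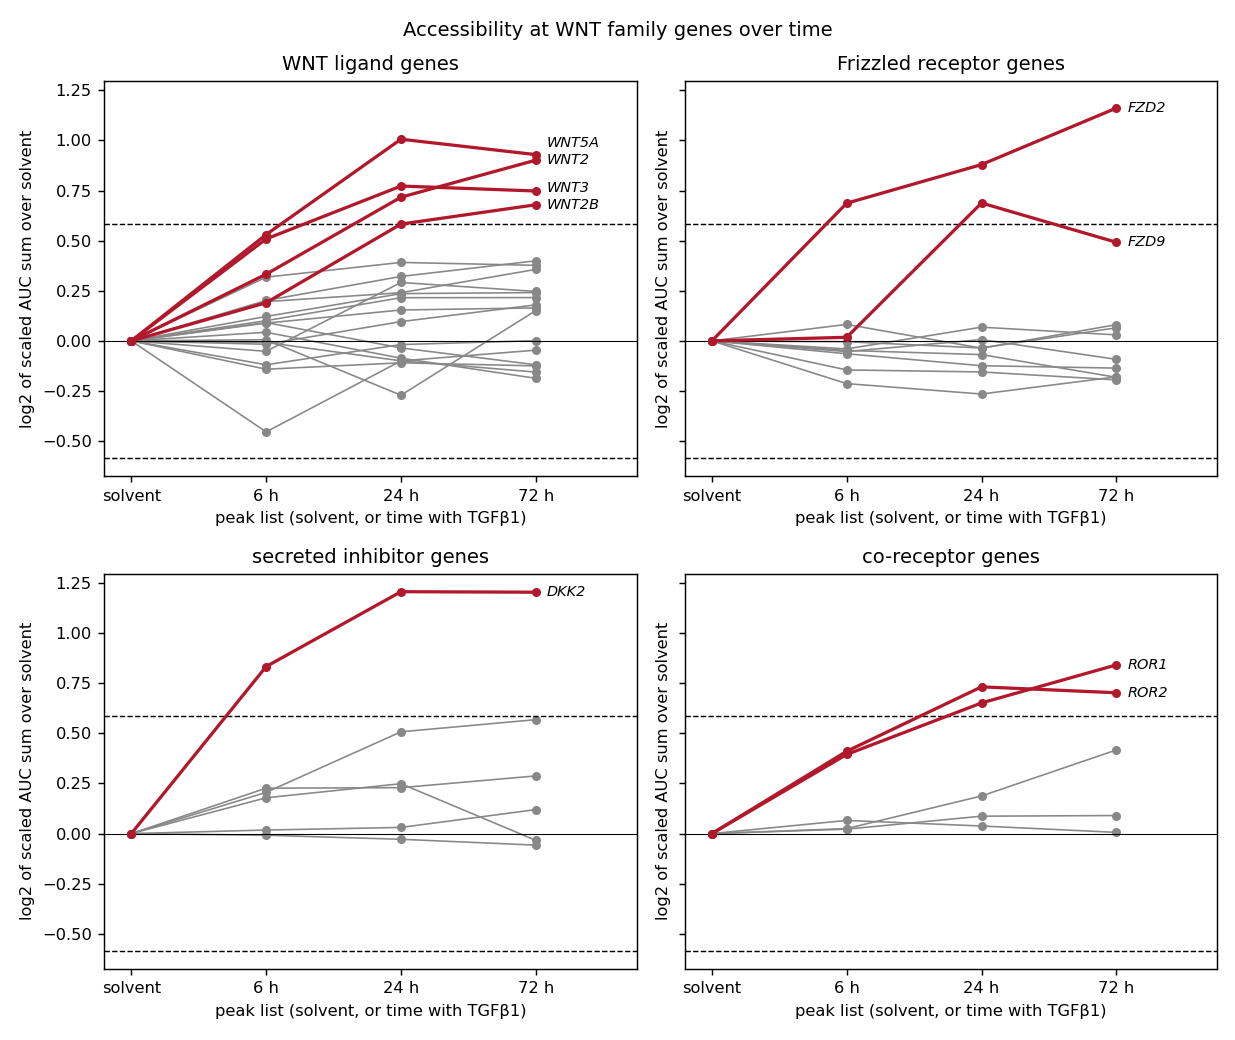
Log2 ratio of the scaled AUC sum to that of solvent for each of the 40 members with a peak in solvent, by class of gene, with 1 pooled list per point and dashed lines at the 1.5-fold limit in either direction. Members past the limit at any time are drawn in red and named. At 72 h, 4 ligands, 1 Frizzled gene, 1 inhibitor and 2 co-receptors lie above the upper line, and no member lies below the lower line. Over all genes, 11.6% were past the upper limit and 0.401% past the lower one at 72 h.

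Among the 19 ligand genes, 0, 3 and 4 were higher at 6, 24 and 72 h, against 4.44%, 10.5% and 11.6% of all genes. The class median at 72 h was 0.22 on the log2 scale, beside 0.08 over all genes. WNT5A (ENSG00000114251.15, chr3:55465715-55490539), the prototype of ligands that act without β-catenin, had a sum of 2386 in solvent, then 3446, 4792 and 4544 at 6, 24 and 72 h. The level at 72 h was 1.90 times that of solvent, and all 3 TGFβ1 lists lay above solvent. Its number of peaks grew from 5 regions in solvent to 9, 11 and 8. The region over its annotated start at 3.25 kb into the gene (chr3:55486815-55487383) held 559.9 in solvent, then 587, 699 and 846 at 6, 24 and 72 h. A region inside an intron 13.8 kb from the gene start (chr3:55476609-55476880) held 212 in solvent, then 313, 585 and 589 at 6, 24 and 72 h, the largest log2 ratio among the regions of this gene with a peak in every list, at 1.47.

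WNT2 (ENSG00000105989.10, chr7:117275451-117323152), a ligand of the β-catenin route, had 3139 in solvent, then 3954, 5160.0 and 5865 at 6, 24 and 72 h, which is 1.87 times solvent at 72 h. No region lay over its TSS. The largest single part of the difference came from the intronic region shown above (chr7:117283391-117283888), which held 0 in solvent, then 190.5, 1132 and 1378 at 6, 24 and 72 h and was the strongest of all regions of the family that had no peak in solvent. A second intronic region nearby (chr7:117281601-117282053) held 554 in solvent, then 676, 792 and 1007 at 6, 24 and 72 h, while the strongest region of the gene, downstream of it, held 1544 in solvent, then 1628, 1696 and 1647 at 6, 24 and 72 h. The window also takes in a TSS of CFTR, but no region of WNT2 lay within 3 kb of it.

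WNT3 (ENSG00000108379.11, chr17:46762506-46833154), another ligand of the β-catenin route, had 4060.2 in solvent, then 5777, 6936 and 6818 at 6, 24 and 72 h, 1.68 times solvent at 72 h. A single region over an internal GENCODE start, 60.8 kb into the gene (chr17:46771375-46772540), held 264 in solvent, then 1327, 1679.7 and 1478 at 6, 24 and 72 h. Its log2 ratio of 2.48 at 72 h was the largest of any region over a member's own start, although RefSeq lists no start there. The regions of WNT3 outside this start came to a log2 ratio of 0.49. Its window takes in TSSs of NSF and WNT9B, and 1 weak region within 3 kb of that of NSF (chr17:46751520-46751706) held 0 in solvent, then 153, 188 and 0 at 6, 24 and 72 h. A downstream region of WNT3 (chr17:46742613-46743328) held 1169.9 in solvent, then 1458, 1571 and 1777 at 6, 24 and 72 h. With the caller's −log10 p in place of the AUC, WNT3 fell short of the limit, with log2 ratios of 0.52 at 24 h and 0.35 at 72 h. Around the summit of the region over the internal start stands the SMAD palindrome GTCTAGAC, which was found in 2 of the 318 family regions (0.629%) and in 0.295% of all regions. The other was the second intronic region of WNT2.

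WNT2B (ENSG00000134245.18, chr1:112466541-112530165), a relative of WNT2, had 3702 in solvent, then 4224, 5544 and 5927 at 6, 24 and 72 h. This was 1.60 times solvent at 72 h, the lowest ratio of a member counted as higher at that time. At 24 h its ratio was just under the limit. The peaks covered 4, 4, 9 and 8 of its 9 regions, and one in an exon 56.3 kb from the gene start (chr1:112522613-112523038) held 0 in solvent, then 0, 387 and 732 at 6, 24 and 72 h. Its window takes in TSSs of CTTNBP2NL and ST7L, and regions within 3 kb of these gave 23.5% of its sum in solvent and 25.5% at 72 h.

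The ligand genes with the most open chromatin in solvent were not those counted as higher. WNT9A, a ligand with a role in joints and blood stem cells, had the highest sum of all members in solvent, with 22248 in solvent, then 23658, 24757 and 24934 at 6, 24 and 72 h. Its promoter region stood at 9954 in solvent, then 9993, 10134 and 9867 at 6, 24 and 72 h, close to the same level in every list. WNT3A, the ligand most used to activate β-catenin in culture, had 20101 in solvent, then 18226, 18632 and 18436 at 6, 24 and 72 h and was slightly lower in each TGFβ1 list. The next were WNT7A and WNT7B, ligands of epithelia, and WNT5B, a close relative of WNT5A, all 3 above solvent in every TGFβ1 list without reaching the limit. WNT7A had 19441 in solvent, then 22358, 24293 and 25645 at 6, 24 and 72 h. WNT7B had 14776 in solvent, then 18420.1, 19383 and 19187 at 6, 24 and 72 h. WNT5B had 16967 in solvent, then 19434, 20044 and 21726 at 6, 24 and 72 h. Regions within 3 kb of a TSS of FBXL14 gave 34.3% of the WNT5B sum in solvent and 26.4% at 72 h. WNT10A, a ligand of skin appendages, had 10752 in solvent, then 11077, 10127 and 9447 at 6, 24 and 72 h, the lowest ratio among the ligands at 72 h, with a log2 of -0.19. The remaining 9 ligand genes had log2 ratios between -0.16 for WNT6 and 0.25 for WNT11 at 72 h, and between -0.45 and 0.12 at 6 h. Among these was WNT4, which acts in side branching of the mammary ducts under progesterone, with 5203 in solvent, then 5543, 5078 and 4790.1 at 6, 24 and 72 h.

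WNT7A and WNT5B held some of the strong regions that gained most. Among the 88 family regions with a peak in all 4 lists and an AUC of at least 1000 in solvent, here called strong, 8 were at least 1.5 times higher (9.09%, background 6.02%) and 2 lower (2.27%, background 3.16%) at 72 h, the background being 32836 such regions in all. A region downstream of WNT7A (chr3:13801674-13802362) held 1024 in solvent, then 1639.9, 2009 and 2069 at 6, 24 and 72 h. The promoter region of WNT7A held 3051 in solvent, then 3979, 4892 and 4815 at 6, 24 and 72 h, a log2 ratio of 0.66 at 72 h. A region at -10.5 kb from the start of WNT5B (chr12:1518250-1519987) held 2709 in solvent, then 4351, 4841 and 4569.6 at 6, 24 and 72 h, and one at -1.98 kb, shown above (chr12:1527806-1528253), held 0 in solvent, then 449, 949.9 and 1142 at 6, 24 and 72 h. Inside WNT7A, one intronic region (chr3:13853584-13854497) held 1905 in solvent, then 2635, 2766 and 3102 at 6, 24 and 72 h. Another (chr3:13824542-13825496) held 1212 in solvent, then 1322, 1641 and 1924 at 6, 24 and 72 h. WNT7B had an intronic region (chr22:45968881-45969824) with 1556 in solvent, then 2264, 2908 and 3003 at 6, 24 and 72 h.

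Both strong regions that were lower belonged to WNT3A. The intronic one (chr1:228044934-228046442) held 2332 in solvent, then 1773, 1265 and 1001 at 6, 24 and 72 h, with a log2 ratio of -1.22 at 72 h, and the upstream one (chr1:227996006-227996859) held 1845 in solvent, then 1516, 1084 and 1071 at 6, 24 and 72 h, with -0.78. Each list after solvent was lower than the one before it in both regions. The other 13 regions of WNT3A added up to slightly more at 72 h than in solvent.

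Of the strong ligand regions next in order of decrease, none reached the limit. One downstream of WNT5B (chr12:1660174-1660745) held 1126 in solvent, then 767, 864 and 783 at 6, 24 and 72 h. An intronic region of WNT4 (chr1:22137013-22137943) held 1514 in solvent, then 1579, 1401 and 1091 at 6, 24 and 72 h. A region over an internal start of WNT10A (chr2:218892710-218893583) held 1949.7 in solvent, then 1770.2, 1690.0 and 1417 at 6, 24 and 72 h. All 3 were lowest or next to lowest at 72 h.

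Of the 10 Frizzled genes, 1, 2 and 1 were higher at 6, 24 and 72 h, against 4.44%, 10.5% and 11.6% of all genes. The class median was -0.04, -0.04 and -0.03 at these times, beside 0.04, 0.08 and 0.08 over all genes. The receptor FZD2 (ENSG00000180340.7, chr17:44557484-44561262), which can bind WNT5A, had 2049 in solvent, then 3299, 3771 and 4584 at 6, 24 and 72 h. This was 1.61 times solvent at 6 h and 2.24 times at 72 h, and each list was higher than the one before. The promoter region held 1512 in solvent, then 2039, 1992 and 2053 at 6, 24 and 72 h, a log2 ratio of 0.44 at 72 h, whereas all other regions together had 2.24. These others lay upstream, and 3 of them had no peak in solvent. The one at -10.3 kb from the gene start (chr17:44546885-44547506) held 0 in solvent, then 321, 669.8 and 757 at 6, 24 and 72 h and the one at -13.7 kb (chr17:44543208-44543961) held 0 in solvent, then 209.9, 275 and 786 at 6, 24 and 72 h. No other protein-coding TSS lay in the window. With only 5 kb on each side of the gene, FZD2 was past the limit at no time, with log2 ratios of 0.43, 0.46 and 0.48.

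FZD9, a Frizzled gene with little open chromatin here, had 811 in solvent, then 821, 1307 and 1141 at 6, 24 and 72 h, and only the 24 h list passed the limit, at 1.61 times solvent. Its promoter region held 811 in solvent, then 821, 778 and 745 at 6, 24 and 72 h, and the rest came from a pair of weak downstream regions without a peak in solvent. FZD10 stood out in its promoter region (chr12:130162098-130162669), which held 240.2 in solvent, then 504, 488 and 613 at 6, 24 and 72 h, a log2 ratio of 1.35, while its sum stayed at 1536 in solvent, then 1626, 1498 and 1625 at 6, 24 and 72 h. The other 7 Frizzled genes had wide open promoter regions in solvent, from 3837 for FZD3 to 8918 for FZD8. Their promoter log2 ratios at 72 h were all below 0, between -0.34 for FZD6 and -0.02 for FZD4, beside a median of -0.08 over promoters of all genes. These signs depend on the scaling, since before it only the FZD6 promoter was lower at 72 h than in solvent. The log2 ratios of the sums of these 7 genes lay between -0.19 for FZD8 and 0.07 for FZD4.

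Of the 5 co-receptor genes, 0, 2 and 2 were higher at 6, 24 and 72 h, against 4.44%, 10.5% and 11.6% of all genes. All 5 had a log2 ratio above 0 at each time, as did 60.7%, 64.5% and 64.7% of all genes. The lowest of the 5 at 72 h was LRP5, at only 0.006. ROR1 (ENSG00000185483.13, chr1:63774017-64181498) and ROR2 (ENSG00000169071.15, chr9:91563091-91950228) encode receptor tyrosine kinase-like proteins that bind WNT5A. The sum over ROR1 was 14755 in solvent, then 19399.5, 23180.4 and 26442 at 6, 24 and 72 h, or 1.79 times solvent at 72 h, and each list was higher than the one before. The promoter region of ROR1 held 3631 in solvent, then 3516, 3645 and 3635 at 6, 24 and 72 h, a log2 ratio of 0.00, so that all of the added accessibility lay elsewhere in the gene, where the ratio was 1.04. ROR1 had peaks in 17, 24, 25 and 27 of its 27 regions, and 10 regions had a peak at 72 h and none in solvent. Among them, the intronic region 104 kb into the gene, shown above, held 0 in solvent, then 277, 520.5 and 761 at 6, 24 and 72 h. One 309 kb into the gene held 0 in solvent, then 155, 537 and 717 at 6, 24 and 72 h. One 147 kb into the gene held 0 in solvent, then 165, 452 and 716 at 6, 24 and 72 h. In all 3 the value was higher at each later time.

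ROR2 gave 9215 in solvent, then 12249, 15306 and 14997 at 6, 24 and 72 h, 1.63 times solvent at 72 h. Its promoter region held 973 in solvent, then 1146, 1205 and 1074 at 6, 24 and 72 h, with a log2 ratio of 0.14, and its other regions had 0.76. Peaks were found in 15, 22, 26 and 27 of its 30 regions, with 13 regions gained and 1 lost at 72 h. One strong intronic region went the other way (chr9:91589022-91589642), with 1765 in solvent, then 1565, 1444 and 1180.1 at 6, 24 and 72 h. The windows of ROR1 and ROR2 hold no TSS of another protein-coding gene.

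**Figure D2:**
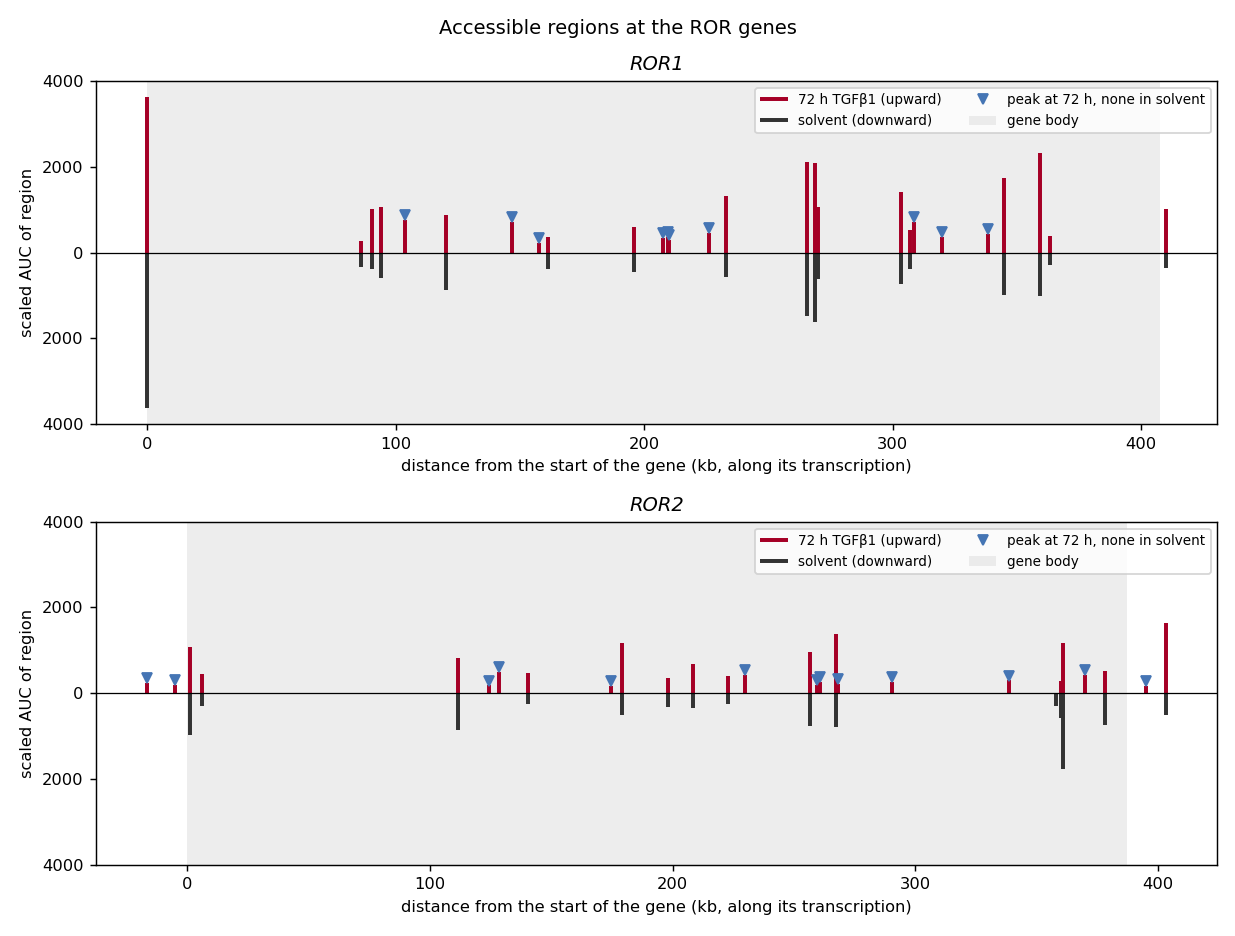
Scaled AUC of each region of ROR1 and ROR2 at 72 h of TGFβ1 (upward) and in solvent (downward) against the distance from the start of the gene in kb, with triangles on regions that had a peak at 72 h and none in solvent. The ROR1 promoter bar has nearly the same height in both directions, and the 10 gained regions of ROR1 and 13 of ROR2 are spread over the windows.

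LRP6, a co-receptor of the β-catenin route, had 3087 in solvent, then 3140.4, 3516 and 4122 at 6, 24 and 72 h, with a log2 ratio of 0.42 at 72 h. In solvent its only peak was at the promoter, which held 3087 in solvent, then 2712, 2691 and 2716 at 6, 24 and 72 h, and 5 regions were gained by 72 h. LRP5, its paralogue, had 20340.5 in solvent, then 21288, 20881 and 20426 at 6, 24 and 72 h, nearly equal in all lists, with a promoter region at 1274 in solvent, then 1134, 1131 and 948 at 6, 24 and 72 h. Regions within 3 kb of another gene's TSS gave 27.4% of the LRP5 sum in solvent and 24.5% at 72 h. A strong intronic region of LRP5 (chr11:68321414-68322367) held 1759 in solvent, then 1716, 1499 and 1288 at 6, 24 and 72 h. RYK, an atypical receptor tyrosine kinase for WNTs, had 12404 in solvent, then 12596, 13174 and 13202 at 6, 24 and 72 h and a promoter log2 ratio of 0.04.

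Among the inhibitors, DKK2 was higher at all 3 times, and it was the only one of the 6 inhibitor genes tested to pass the limit at any time. Of all genes, 4.44%, 10.5% and 11.6% were higher at 6, 24 and 72 h. The sum over DKK2 (ENSG00000155011.9, chr4:106921802-107283806), whose product binds LRP5 and LRP6, was 2327 in solvent, then 4147, 5373 and 5363 at 6, 24 and 72 h. At 72 h it was 2.30 times solvent, the highest ratio of any member. The region over the gene start (chr4:107283618-107284363) held 259.9 in solvent, then 684, 1040.4 and 1401 at 6, 24 and 72 h, a log2 ratio of 2.43, with each list higher than the one before. With a pair of weak regions over an internal start added, the log2 ratio of its promoter regions was 1.86. This gene is long, and its other regions were mostly weak intronic peaks, of which the strongest in solvent (chr4:107069105-107069388) held 649.9 in solvent, then 579, 588 and 429 at 6, 24 and 72 h. Peaks were found in 7, 12, 15 and 13 of its 16 regions.

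DKK3, a divergent relative, had 6210.3 in solvent, then 7162, 8830.3 and 9210.0 at 6, 24 and 72 h, 1.48 times solvent at 72 h and so just short of the limit. Its region over an internal start 29.7 kb into the gene (chr11:11979320-11980121) held 215 in solvent, then 454, 796 and 679.6 at 6, 24 and 72 h, a log2 ratio of 1.66. DKK1, an inhibitor induced by WNT signals themselves, had 5225 in solvent, then 6114, 6125 and 6378 at 6, 24 and 72 h, with a promoter log2 ratio of 0.22. DKK4 had 4092 in solvent, then 4143, 4180.0 and 4446 at 6, 24 and 72 h, but all of its sum in solvent and 91.0% at 72 h came from regions near TSSs of other genes, POLB and VDAC3 being in its window. SFRP1, which binds WNTs, had 20446 in solvent, then 20328, 20047 and 19647 at 6, 24 and 72 h, the second highest sum of the family in solvent and nearly equal in all lists. SFRP5 had 1879 in solvent, then 2127, 2233 and 1836 at 6, 24 and 72 h. SFRP2 and SFRP4 were listed at 0 in solvent and got no ratio. A single weak region upstream of SFRP2 held 0 in solvent, then 223, 349 and 299.5 at 6, 24 and 72 h, and one in an intron of SFRP4 held 0 in solvent, then 163, 202 and 184 at 6, 24 and 72 h.

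**Figure D3:**
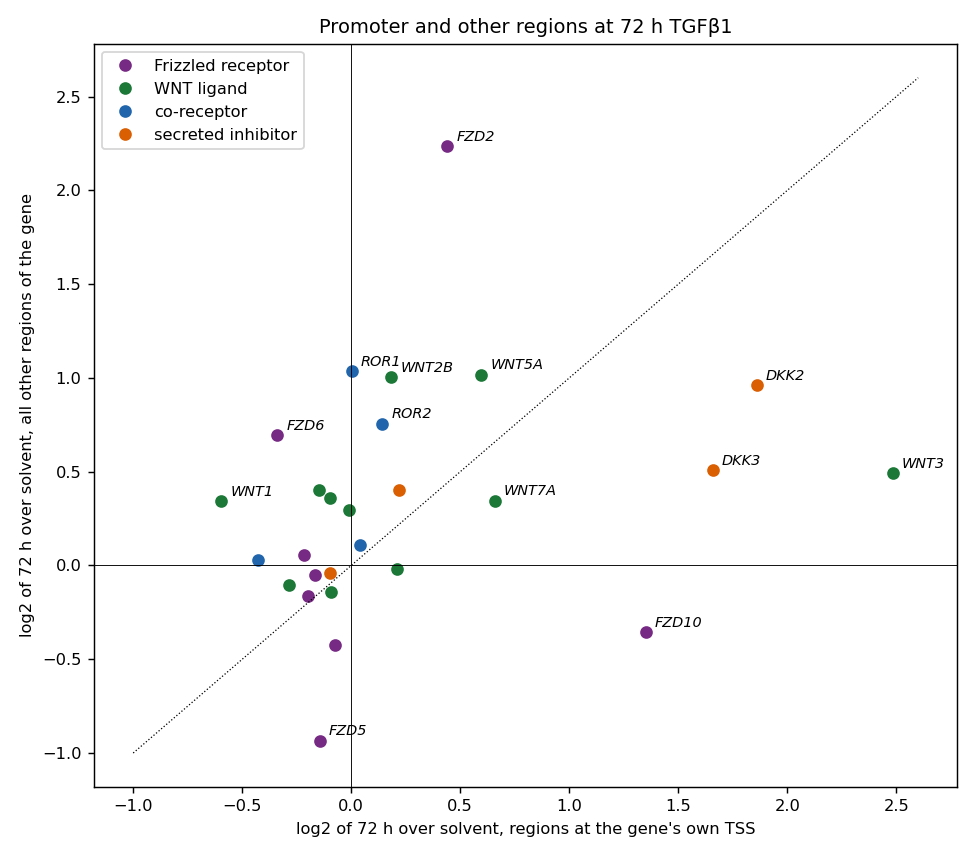
Log2 ratio of 72 h TGFβ1 to solvent over regions at the gene's own TSS (horizontal) against that over all its other regions (vertical), for the 27 members that have both, with 1 point a gene, coloured by class, and the diagonal dotted. Points above the diagonal, 18 of 27, had the higher ratio away from the promoter. FZD2, ROR1, FZD6, WNT1 and WNT2B lie far above it, and WNT3, DKK2, DKK3, FZD10 and FZD5 far below.

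Regions over a member's own TSS and its other regions were then set side by side. A region over a GENCODE start was found for 30 members, and each of the 30 had a promoter peak in solvent. The median log2 ratio at 72 h was -0.05 over these promoters, and 0.18 over the other regions of 37 members, beside -0.08 and 0.18 over all genes. Of the promoters, 6 were at least 1.5-fold higher (20.0%, background 2.57%) and 1 lower (3.33%, background 0.971%). The 6 were those of WNT3, DKK2, DKK3, FZD10, WNT7A and WNT5A. All of these but WNT7A were weak in solvent, from 215 for DKK3 to 559.9 for WNT5A. The background holds promoters of any strength, and no share among equally weak ones was computed, so the 2 shares are not directly comparable. Of the sums over other regions, 8 were higher (21.6%, background 21.9%) and 1 lower (2.70%, background 0.943%). The ratio away from the promoter was the higher one in 18 of 27 members, against 77.1% of all genes. The promoter that was lower was that of WNT1, a ligand first found as a site of viral insertion in mouse mammary tumours, with 502 in solvent, then 517, 408 and 332 at 6, 24 and 72 h, and the other regions that were lower were those of FZD5.

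Counted by region, gains outnumbered losses among family genes, as they did throughout the genome. At 6 h, 55 of 268 family regions with a peak in either list were gained (20.5%, background 22.9%) and 1 was lost (0.373%, background 0.551%). At 24 h, 80 of 293 were gained (27.3%, background 29.8%) and 3 lost (1.02%, background 1.31%). At 72 h, 81 of 294 were gained (27.6%, background 29.3%) and 7 lost (2.38%, background 2.43%). These shares were near those of all regions at each time. The TGFβ1 lists are also longer, with 107656, 118433 and 116720 peaks against 86209 in solvent. With every list cut to the length of the solvent list, 25 family regions were gained and 34 lost at 72 h. The share over all regions under this cut was not computed, so these counts have no background. Of the 193 family regions farther than 3 kb from any TSS, 62 were gained at 72 h (32.1%, background 35.4%), and of the 101 nearer ones 19 were gained (18.8%, background 17.8%). The 7 lost regions were weak. The strongest was in an intron of LRP5 (chr11:68342390-68342751) with 547 in solvent, then 455, 300.1 and 0 at 6, 24 and 72 h, and the others, with 212 to 360.4 in solvent, belonged to SFRP1, WNT6, FZD10, ROR2 and WNT7B, the last with a pair of them.

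Gained peaks carried part of each call. When only regions with a peak in all 4 lists were summed, an alternative chosen after the data were seen, DKK2 and WNT3 kept log2 ratios past the limit at 72 h, at 0.64 and 0.69. The ratio was then 0.56 for ROR1, 0.48 for FZD2, 0.46 for WNT5A, 0.45 for WNT2, 0.36 for ROR2, 0.28 for WNT2B and -0.12 for FZD9, with the limit at 0.58. When a missing peak was instead given the lowest AUC the caller reports, 200, also chosen after the data were seen, FZD2 at 0.79, WNT2 at 0.73, ROR1 at 0.66 and WNT3 at 0.65 stayed past the limit. DKK2 then had 0.51, WNT5A 0.49, WNT2B 0.37, ROR2 0.34 and FZD9 0.11. WNT3 was the only member past the limit under both of these, and it fell short with −log10 p as given above. With lists of equal length, 6 of the 8 stayed past it at 72 h, and ROR2 at 0.43 and WNT2B at 0.49 did not. Scaling over all regions in both lists also took ROR2 to 0.56 and WNT2B to 0.53, the 5 kb window took ROR2 to 0.57, and a minimum AUC of 400 took WNT2B to 0.52.

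Words for factors linked to TGFβ1 and to WNT signals were searched in the 201 bases around the strongest summit of each region, on both strands. The AP-1 word TGACTCA stood in 102 of 318 family regions (32.1%) and in 32.3% of all regions. It stood in 35 of the 81 regions gained at 72 h (43.2%), beside 39.9% of all gained regions, and among the sequences above in those of WNT2, WNT5B and FZD2. The TCF/LEF word CTTTGAT stood in 3 family regions (0.943%), against 2.24% of all, and lay in WNT3A, RYK and DKK2. The RUNX word TGTGGTT stood in 4.40% against 6.48%, and the TEAD word GGAATG in 10.4% against 15.9%. None of these words contains another, and a match is a run of letters and not a bound site.

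The other genes of the pathway, 61 in all and 60 with a peak in solvent, were measured in the same way. Of these, 2, 5 and 4 were higher at 6, 24 and 72 h, against 4.44%, 10.5% and 11.6% of all genes. Lower were 0, 1 and 0, against 0.0557%, 0.217% and 0.401%. The 4 of 60 higher at 72 h are a smaller share than the 11.6% of all genes. LGR5, a receptor for R-spondins, which strengthen WNT signals, had 2089 in solvent, then 4786, 5676 and 5894 at 6, 24 and 72 h, or 2.82 times solvent at 72 h, a larger ratio than any member of the family. The other 3 at 72 h were GPC3, a cell surface glypican, with 4541 in solvent, then 6567, 8153 and 9058 at 6, 24 and 72 h, SOSTDC1, a secreted antagonist of WNT and BMP, with 968 in solvent, then 1430.2, 1544 and 1732 at 6, 24 and 72 h, and TNFRSF19, a receptor whose gene is a WNT target, with 7423 in solvent, then 9886, 12645 and 12085 at 6, 24 and 72 h. NKD2, which restrains Dishevelled, was the one counted as lower, with 1803 in solvent, then 1748, 1161 and 1214 at 6, 24 and 72 h. None of the 12 cytoplasmic and 10 nuclear genes of the route passed the limit at any time. The feedback target AXIN2 had a log2 ratio of 0.14 at 72 h and LEF1 had 0.20. The secreted inhibitor WIF1 had 0 in solvent, then 250.3, 348 and 333 at 6, 24 and 72 h.

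The cells were checked against markers of their type by a peak within 1 kb of the TSS in solvent. All 8 basal epithelial genes had one, KRT5 and TP63 among them, as did 2 of 3 luminal hormone-responsive genes and 1 of 7 genes of other cell types. Among the luminal genes, ESR1 went from 298 in solvent to 0 at 72 h and PGR was at 0 in every list. PRLR went the other way, from 3966 in solvent to 6401 at 72 h. Of the other cell types, CD3E, CDH5, MYOD1 and NEUROD1 were at 0 in every list. PECAM1 had a peak in every list, from 1351 in solvent to 2099.8 at 72 h, and PTPRC went from 0 to 892. The part of these in the results was not tested. Accessibility is not expression, and nothing here measures RNA or protein of any WNT gene.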

How the data were processed

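ATAC-seq peaks of 8 MCF10A libraries, 2 for each of 4 conditions, were analysed. Per the submitters' processing notes and the study's methods, the authors used Trimmomatic 0.38, Bowtie2 2.4.5, Picard and SAMtools 1.4.1 on GRCh38, then called peaks with Genrich 0.5 on both replicates of a condition together. The 4 deposited lists give for each peak a signal value, its AUC, of at least 200, not scaled between lists by the authors, and a −log10 p at the summit, also as deposited and used here only in an alternative. Which condition a list holds was read from its name. Read totals are not in the lists, so the depth is unknown and no interval is given.

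Lists were merged where peaks overlapped and joined to GENCODE 44 with Python 3.11.15, numpy 2.4.6 and pandas 2.3.3, and drawn with matplotlib 3.10.9. Sums, scaling and the 1.5-fold limit are described in the report, and the procedure was tested on simulated data. The simulated lists were made from the solvent peaks and held no gained peaks, so they do not cover calls that rest on those. A gene at 0 in either list got no ratio. Named were all members past the limit or listed at 0 in a list, the 10 with the highest solvent sum, the promoter regions of genes described, and up to 8 regions each that were gained, were lost, or rose or fell most among strong ones. Other genes and regions with values, such as FZD10, SFRP5, the second region of WNT2 and the marker genes, were named for completeness. One region and 1 marker gene that these rules name are not reported here. The AP-1, TCF/LEF, SMAD, RUNX and TEAD words were searched on both strands of the 201 bases around the strongest summit. Alternatives were no scaling, scaling over other regions, lists of equal length, a minimum AUC of 400, windows of 5 and 50 kb, leaving out regions near other genes' TSSs, −log10 p, a 2-fold limit and an overlap of 50%, with 2 more added after the data were seen. The members and lists were chosen with earlier results of these data known. The authors' read-level tests per replicate were not used here.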

Additional observations from a re-analysis of the deposited data

How the results depend on the processing

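Of 141 alternative values for the counts and medians of the family, 103 stayed within 1.5 times (counts) or 0.1 on the log2 scale (medians), 35 moved further and 3 changed sign. No paired analysis was possible because the lists pool both replicates. Without scaling, 14, 18 and 14 members were higher at 6, 24 and 72 h and the medians were 0.50, 0.50 and 0.40, with 29.5%, 32.6% and 22.5% of all genes higher and medians of 0.48, 0.46 and 0.33. Scaling over all regions in both lists gave medians of -0.0093, 0.0030 and 0.013, beside -0.023, -0.047 and -0.064 over all genes. A minimum AUC of 400 gave 5 higher members at 6 h, against 5.81% of all genes. With −log10 p in place of the AUC, 6 were higher at 6 h, against 8.30% of all genes. The median at 24 h was then 0.28, beside 0.20 over all genes. A 2-fold limit left 0, 2 and 2 higher members, against 1.36%, 3.99% and 4.44% of all genes. Lists of equal length gave 5 higher members at 24 h, against 6.82% of all genes. Their medians were -0.023 at 24 h and 0.017 at 72 h, beside 0.0048 and 0.0069 over all genes. They also gave 8, 25 and 25 gained regions and 7, 26 and 34 lost ones. The window of 5 kb gave 2 lower members at 72 h, against 0.736% of all genes. It also gave 0 and 1 lost regions at 6 and 24 h, and that of 50 kb gave 85 gained regions at 6 h. An overlap of 50% of both peaks gave 22, 21 and 28 lost regions. No share over all regions was computed for these alternative counts of regions. Of the pair added after the data were seen, summing only regions with a peak in all lists left 0, 2 and 2 higher members. The shares over all genes were then 1.53%, 4.08% and 4.70%. The median at 72 h was -0.0080, beside 0.015 over all genes. Setting missing peaks to an AUC of 200 left 0, 3 and 4 higher members, against 1.20%, 5.06% and 6.77% of all genes. FZD9 changed sign in 5 cases. Its log2 ratio at 6 h was -0.046 with scaling over all regions, -0.055 with the 50 kb window and -0.12 with missing peaks at 200, and with regions in all lists only it was -0.059 at 24 h and -0.12 at 72 h. The cause was not tested. With 1 pooled list a condition and no read totals, depth limits weak peaks most, and a region without a peak may still be open below the caller's limit.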
